A study of Homo sapiens with 4 samples.

Results

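The human zinc finger genes of chromosome 19 form the largest group of related transcription factor genes on that chromosome. Members were taken from the deposited gene table by name and place. They are the entries whose symbol is ZNF followed by a number and at most a letter and whose locus lies on chromosome 19, and ZNF274, ZNF444 and ZNF446, which belong to the SCAN family, were left out. This gave 245 genes, each on a single row, of 24934 entries in the table. The symbol pattern matched 538 entries in all, of which 290 lie on other chromosomes, and chromosome 19 holds 1376 further entries.

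The cells were HEK-293, an established line from human embryonic kidney. They were transfected with 10 nM siRNA and collected after 48 h, with 1 RNA library for each treatment and 4 libraries in all. Libraries are named by their siRNA. The siRNAs si4 and si5 target ZSCAN5A, si1 targets ZSCAN5B, and the control received a scrambled siRNA. In the paper's qRT-PCR, ZSCAN5D was also lower with si4 and si5, and less so with si1, while ZSCAN5B was higher with si4. ZSCAN5A and ZSCAN5B are SCAN zinc finger genes that lie on the same chromosome, so the comparison asks how the neighbouring ZNF families behaved when a zinc finger regulator was targeted. Each siRNA and the control had a single library, so the differences described here have no replicate behind them. They are given without p-values, apart from a limma alternative in the last section that treats si4 and si5 as if they were replicates.

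Zinc finger proteins of this kind read DNA through a row of C2H2 fingers, small loops in which a pair of cysteines and a pair of histidines hold a zinc ion. Most ZNF genes of chromosome 19 arose by tandem duplication and stand side by side in clusters. Many also encode a KRAB domain, which recruits the corepressor TRIM28 and, through it, the histone methyltransferase SETDB1 and heterochromatin proteins. KRAB zinc finger proteins are best known for silencing transposable elements.

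To show the repeated unit that these genes share, the coding sequence of the first finger with the exact spacing C2-C12-H3-H is printed for 4 of them. They are ZNF146, which had the highest level, ZNF480 and ZNF264, the only members past the fold limit in a main comparison, and ZNF91, known for silencing SVA retroelements. Capitals mark the codons of the 2 cysteines and 2 histidines, and each sequence is 63 bases of the GRCh37 reference, read 5′ to 3′ on the coding strand.
ZNF146: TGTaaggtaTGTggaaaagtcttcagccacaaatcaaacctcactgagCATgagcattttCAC
ZNF480: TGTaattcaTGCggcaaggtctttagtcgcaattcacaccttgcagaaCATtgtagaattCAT
ZNF264: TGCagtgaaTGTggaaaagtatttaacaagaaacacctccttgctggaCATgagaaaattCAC
ZNF91: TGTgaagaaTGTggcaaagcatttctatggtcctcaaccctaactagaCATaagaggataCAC

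The ZNF146 finger lies at chr19:36727394-36727456 and the ZNF480 finger at chr19:52825200-52825262, both on the plus strand. The ZNF264 finger lies at chr19:57723078-57723140 on the plus strand and the ZNF91 finger at chr19:23544917-23544979 on the minus strand. Between these genes the 63 bases were identical at 34 to 42 positions, lowest for ZNF480 with ZNF91 and highest for ZNF146 with ZNF264. Related fingers can share sequencing reads, so each member's transcript was compared with the transcripts of genes elsewhere. Of the members, 186 shared no stretch of 101 bases, the read length, and 9 shared over 10% of their stretches, among them ZNF98, ZNF417, ZNF492 and ZNF587, whose values are less certain.

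The targeted genes were measured in every library. ZSCAN5A, at chr19:56732679-56739659, stood at 0.730 FPKM in si4, 0.713 in si5, 2.53 in si1 and 2.42 in the control, where FPKM counts the fragments per kilobase of a transcript after scaling for library size. It was therefore at 30.2% and 29.5% of the control in the libraries meant to lower it. ZSCAN5B, at chr19:56701058-56704421, was near the detection limit throughout, with 0.0331 FPKM in si4, 0.0663 in si5, 0.0948 in si1 and 0.0903 in the control. It was not lower in its own sample, at 105% of the control, but values this low cannot show whether the knockdown worked. The paper reported that si1 lowered ZSCAN5B transcript by qRT-PCR and ZSCAN5B protein by Western blot. Here si1 is called the library labelled ZSCAN5B knockdown. Depth, estimated from the steps between low values, came to about 52.4 M fragments in the control, 57.2 M in si4, 81.0 M in si5 and 53.3 M in si1. The si5 estimate lies above the range of reads per sample that the paper states, and the others lie below it. The fragment counts and counting errors given below rest on these estimates and are as uncertain. Of 9 HEK-293 markers, 7 were at 1 FPKM or above in every library, and NES and PAX2 were not. None of 9 markers of other cell types reached 1 FPKM, and their summed level was 0.0448 to 0.201 FPKM.

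Most of the family was transcribed, at modest levels. In the control 198 of 245 members, or 80.8%, stood at 1 FPKM or above, against 51.6% of all entries, 50.4% of the other chromosome 19 entries and 79.3% of the ZNF genes on other chromosomes. The median member stood at 3.46 FPKM, with quartiles of 1.57 and 6.27. High levels were fewer than elsewhere in the table, as 29 members, or 11.8%, reached 10 FPKM, against 26.1% of all entries. All members together made up 0.276% of the summed FPKM in the control, and 0.257%, 0.255% and 0.253% in si4, si5 and si1. The members' own sum was 1348 FPKM in the control and 1404, 1377 and 1360 with si4, si5 and si1, while the sum over all entries was 488036 in the control and 537181 to 546239 in the siRNA libraries. The lower share in those libraries therefore came with a larger total and not with a smaller sum over the members.

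The 5 highest members held 19.4% of the family's summed control FPKM. ZNF146, whose protein consists almost wholly of fingers, led with 108.1 FPKM in si4, 97.7 in si5, 100.1 in si1 and 80.1 in the control. All 3 siRNA libraries were above the control, in which this gene made up 5.94% of the family's sum. ZNF226 followed at 64.4, 54.1, 53.5 and 52.1 FPKM in the same order. ZNF302 stood at 55.1, 49.1, 48.2 and 46.7 FPKM, so that for both genes the si4 library was highest and the others lay close together. ZNF428, which has a single finger, stood at 42.4, 55.1, 49.97 and 43.4 FPKM, with si5 highest. ZNF580, a small protein with 3 fingers, was highest in the control, with 34.0, 35.2, 32.4 and 39.4 FPKM.

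At the low end, 46 members stayed under 1 FPKM in every library, 194 reached 1 FPKM in every library and the other 5 did so in some. There were 6 members listed at 0 in at least 1 library, namely ZNF676, ZNF729, ZNF99, ZNF534, ZNF665 and ZNF835, and no member was at 0 in all 4. A listed 0 can be a failed estimate in this kind of table, and no fold is given for these genes.

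The members fell into 10 runs of at least 5 genes whose starts lay less than 500 kb apart, which together held 231 of them. Levels differed among these clusters. The lowest median was in the third, of 27 genes at chr19:11594242-12740676, with 1.42 FPKM in the control and 59.3% of its genes at 1 FPKM or above. Next was the fourth, at chr19:19779663-24312654, the home of the ZNF91 family that expanded in primates, where the median of 34 genes was 1.99 FPKM and 64.7% reached 1 FPKM. The eighth, of 41 genes at chr19:52074531-54083523, had a median of 2.61 FPKM and 70.7% at 1 FPKM or above.

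The clusters in the upper part of the range were the sixth and the seventh. The sixth, of 26 genes at chr19:36673187-38270230 around ZNF146, had a median of 5.95 FPKM with 96.2% at 1 FPKM or above. The seventh, of 22 genes at chr19:44037340-45004574, which holds ZNF226, had a median of 7.15 FPKM with 95.5% at 1 FPKM or above. The fifth, a run of 5 genes around ZNF302, had the highest median, 7.66 FPKM. The tenth, of 41 genes at chr19:57702868-58984945 near the chromosome end, had 3.91 FPKM and 90.2%. Among the clusters of more than 5 genes the lowest member stood between 0 and 0.239 FPKM, so genes at low level were found in low and high clusters.

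**Figure D1:**
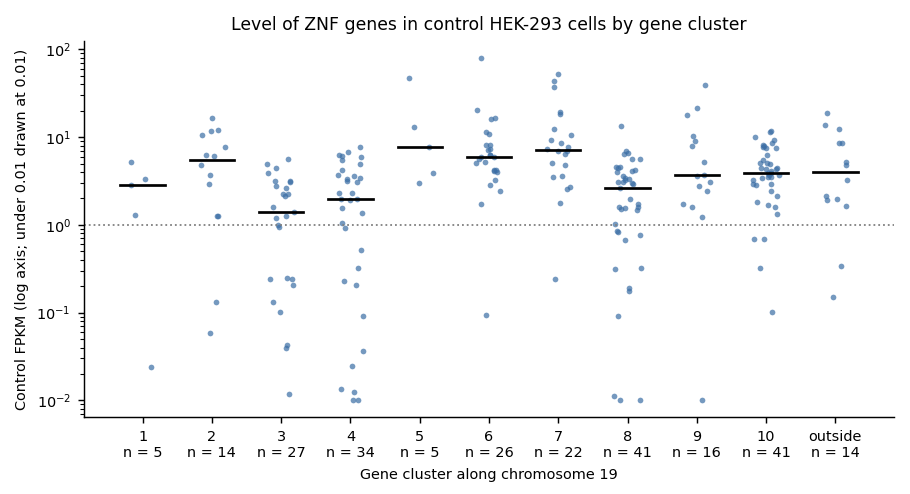
Control FPKM of each of the 245 ZNF genes on a log axis, grouped by gene cluster in order along chromosome 19, with a point per gene, a black line at the cluster median and a dotted line at 1 FPKM. The medians of clusters 3 and 4, at 1.42 and 1.99 FPKM, lie below those of clusters 6 and 7, at 5.95 and 7.15 FPKM, while single genes in most clusters lie far below the line.

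Protein features were read from the coding sequences of 236 members. A match to the KRAB A box was found in 199 and not in 37. Only 1 transcript per gene was read, so a KRAB box carried by another transcript would be missed. The control median was 3.41 FPKM with the match and 5.15 FPKM without it, and the shares at 1 FPKM or above were 82.4% and 83.8%. The transcripts without the match were richer in G and C, with a median GC content of 57.8% against 42.0%. The number of fingers ran from 1 to 36, with a median of 12, and ZNF208 had the most. Members with 9 fingers or fewer had a control median of 4.93 FPKM, those with 10 to 14 fingers 3.35 FPKM and those with 15 or more 3.18 FPKM. The KRAB rule and the finger classes were set after the files had been seen.

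In the libraries that targeted ZSCAN5A, nearly the whole family stood within 1.5-fold of the control. A gene was compared when it reached 1 FPKM in 1 or more of the libraries compared and neither side was at 0, which kept 199 members and left out 46. For the mean of si4 and si5 against the control, 1 member, ZNF480, was past 1.5-fold upward and 0 were past it downward, or 0.503% of the members. Over all 12993 entries compared, 3.79% were past the limit, 88 upward and 404 downward. An entry listed at 0 in only 1 of si4 and si5 stayed in, since its mean was above 0. How many of the downward entries rest on such a 0 was not counted. Among entries in the range of control FPKM that held the middle of the members, from their 10th to their 90th percentile at 1.61 to 12.1 FPKM, the share was 4.91%, with 36 upward and 274 downward. The ZNF genes on other chromosomes had 3 of 232 past the limit and the other chromosome 19 genes 33 of 702.

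Smaller differences were also fewer. At a limit of 1.2-fold, 36 members were past it, or 18.1%, against 26.9% of all entries and 29.3% of those in the same range of control FPKM. The ZNF genes on other chromosomes were close to the members, with 19.4% past it. The median log2 ratio of the members was -0.0045, with quartiles of -0.14 and 0.11, and 97 members were higher and 102 lower. The median over all entries was -0.020, and over entries in the members' range -0.081. The median member had about 876 fragments in the control and an approximate counting SE of 0.058 on its log2 ratio. The highest such SE was 0.32, above the 0.26 that 1.2-fold is on this scale, so for members with few fragments counting error alone can reach the smaller limit. RNA from whole cultures cannot tell fewer cells of a kind from less RNA per cell.

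The members differ from the rest of the table in base composition, and composition moved with the ratios. Their median GC content was 42.1%, against 48.1% over entries at a mean of 1 FPKM or above, and their median transcript length 3941 bases against 3295. Over all entries, 1.99% of those under 45% GC were past 1.5-fold, 4.10% of those from 45% to 55% and 5.00% of those over 55%. Among members the counts were 1 of 149 under 45%, 0 of 28 from 45% to 55% and 0 of 22 over 55%, and the median log2 ratios were 0.021, -0.044 and -0.095. Transcript length moved with the ratio too, since the median log2 ratio over all entries was 0.099 under 2000 bases and -0.11 over 5000 bases. After a correction for both, 0 members were past 1.5-fold, against 2.49% of all entries.

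In the library labelled ZSCAN5B knockdown the family was as little changed. There 1 of 199 members, ZNF264, was past 1.5-fold, downward, against 4.01% of 12921 entries, 109 upward and 409 downward. In the members' range of control FPKM the share was 4.89%. At 1.2-fold, 36 members, or 18.1%, were past the limit, against 28.4% of all entries and 29.3% of those in the members' range, with 21.2% of the ZNF genes on other chromosomes. The median log2 ratio of the members was -0.033, with 85 higher and 114 lower, and that of all entries was -0.0097. Of ZNF genes on other chromosomes, 7 of 231 were past 1.5-fold. After the correction for length and GC content, 4 members were past it for si1, all downward, against 2.86% of all entries. They were ZNF264, ZNF573, ZNF625 and ZNF833P, with corrected log2 ratios from -0.66 to -0.60, the second and the last chosen after their values were seen. Both main comparisons use the same control library, so whatever was particular to that library enters both.

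**Figure D2:**
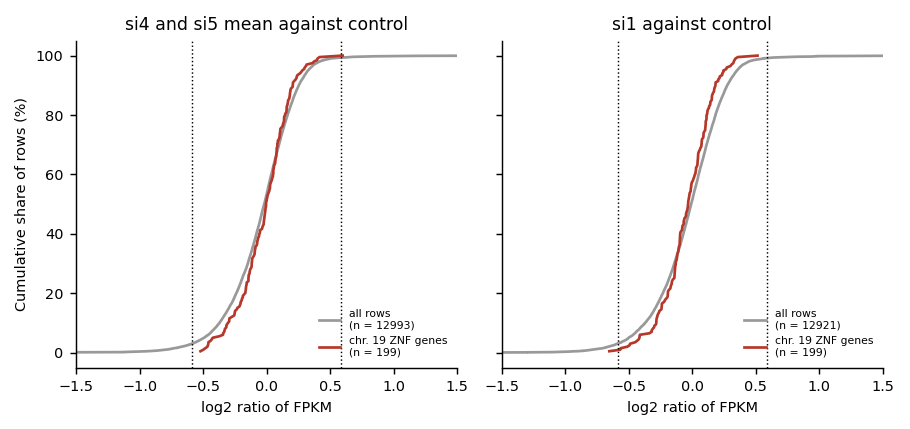
Cumulative share of entries, in percent, by log2 ratio of FPKM for all entries (grey) and the 199 ZNF genes of chromosome 19 compared (red), with the mean of si4 and si5 against the control on the left and si1 against the control on the right, and dotted lines at 1.5-fold. The red curve is steeper than the grey in both panels, with 1 gene past the limits in each.

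Each ZSCAN5A siRNA taken singly gave a few more members. With si4, 3 of 198 members were past 1.5-fold, against 6.36% of all entries, and with si5, 2 of 199, against 3.54%. Those with si4 were ZNF480 upward and ZNF264 and ZNF805 downward. Those with si5 were ZNF296 and ZNF699, both downward. No member was past the limit with both siRNAs, against 1.87% of all entries.

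Between the siRNA libraries the members were closer to each other than to the control. From si4 to si5, 0 of 197 members were past 1.5-fold, against 2.53% of all entries, and the interquartile range of the log2 ratio was 0.18 among members. Between si1 and the mean of si4 and si5, 0 of 198 were past it, against 1.31% of all entries, with an interquartile range of 0.16. The same range was 0.25 for the mean of si4 and si5 against the control and 0.24 for si1 against the control. The pattern was not particular to the members, since over all entries these 4 ranges were 0.22, 0.18, 0.32 and 0.33 in the same order. The ZNF genes most unlike between si4 and si5 were ZNF28, with 2.40 and 3.29 FPKM, ZNF880, with 1.74 and 1.30, and ZNF528, with 2.98 and 2.23.

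ZNF480, a KRAB gene of the eighth cluster with 10 fingers, at chr19:52800426-52829174, stood at 7.19 FPKM in si4, 6.46 in si5, 6.43 in si1 and 4.51 in the control. All 3 siRNA libraries were above the control, and si5 and si1 were nearly level. The log2 ratio was 0.60 for the mean of si4 and si5, just over the limit of 0.58, with an approximate counting SE of 0.048, and 0.51 for si1. ZNF845, with 26 fingers and farther along the same cluster at chr19:53837002-53858122, stood at 3.90, 4.57, 4.12 and 3.21 FPKM. ZNF420, a KRAB gene of the sixth cluster, stood at 14.4, 13.97, 13.5 and 10.8 FPKM. ZNF146 and these 3 genes thus had the control as their lowest library.

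For another pair of genes the si1 library stayed with the control. ZNF100, of the fourth cluster, stood at 7.77 FPKM in si4, 6.79 in si5, 5.60 in si1 and 5.46 in the control. ZNF91 stood at 4.12, 4.04, 3.32 and 3.15 FPKM in the same order. The log2 ratios for the mean of si4 and si5 were 0.42 and 0.37, and for si1 0.037 and 0.073. Both lie in the same cluster, and none of these values was past 1.5-fold. The pattern was not confined to it, since ZNF649 of the eighth cluster had log2 ratios of 0.24 and 0.018 in these comparisons. The 22 compared members of the fourth cluster had a median log2 ratio of 0.074 for the mean of si4 and si5, with 14 higher. For si1 the median was -0.0088, with 11 higher. Set against the mean of si4 and si5 directly, the 3 members furthest below it in si1 all lay there. Beside ZNF100 these were ZNF429, at 1.49, 1.82, 1.14 and 1.36 FPKM in si4, si5, si1 and the control, and ZNF681, at 1.09, 1.11, 0.863 and 1.05 FPKM, both outside the naming rule and chosen after their values were seen. Over the whole cluster, 13 of 22 members were lower in si1 than in that mean, with a median log2 ratio of -0.075, against -0.026 over all members compared.

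ZNF264, a KRAB gene with 13 fingers at chr19:57702868-57734214, stood at 2.59 FPKM in si4, 3.10 in si5, 2.49 in si1 and 3.91 in the control. The control was highest, and si5 lay between it and the others. The log2 ratio was -0.65 for si1, with an approximate counting SE of 0.046, and -0.46 for the mean of si4 and si5. ZNF805, also with 13 fingers and only a short way along the tenth cluster at chr19:57752053-57774106, stood at 1.55, 2.04, 1.98 and 2.41 FPKM. It is outside the naming rule and was chosen after its values were seen, as the third member past the limit with si4.

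The largest differences downward for the mean of si4 and si5 were in ZNF296, ZNF836, ZNF699, ZNF579 and ZNF8, with log2 ratios from -0.52 to -0.46. ZNF296 stood at 1.44 FPKM in si4, 1.25 in si5, 1.41 in si1 and 1.93 in the control, and its approximate counting SE was 0.14. ZNF699 stood at 0.978, 0.809, 1.02 and 1.25 FPKM. ZNF836, with 24 fingers, stood at 1.11, 1.14, 1.19 and 1.59 FPKM. ZNF8, at a higher level, stood at 6.03, 6.50, 6.48 and 8.64 FPKM. In each of these 4 genes the control was the highest library.

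For si1 the largest differences downward after ZNF264 were in ZNF865, ZNF793, ZNF625 and ZNF417, with log2 ratios from -0.57 to -0.49. ZNF865 stood at 2.90 FPKM in si4, 2.87 in si5, 2.52 in si1 and 3.74 in the control, and its GC content was 70.9%. ZNF793 stood at 2.14, 2.00, 1.90 and 2.81 FPKM. ZNF417 stood at 4.77, 4.47, 3.90 and 5.50 FPKM, but 21.5% of its stretches of 101 bases occur in genes elsewhere. The largest differences upward for si1 were in ZNF480, ZNF845, ZNF880, ZNF433 and ZNF420, with log2 ratios from 0.51 to 0.33. No member was past 1.5-fold in the same direction in all 3 siRNA libraries. This follows from none being past it with both si4 and si5, a rule that 1.87% of all entries met. The share of all entries past it in all 3 was not computed.

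**Figure D3:**
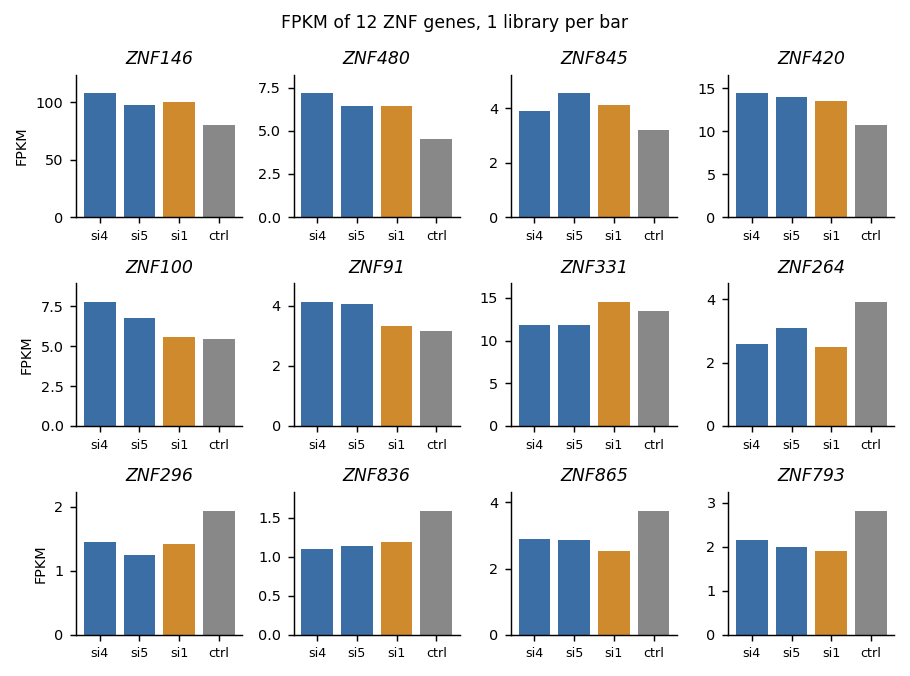
FPKM of 12 ZNF genes, with a bar per library for si4 and si5 (blue), si1 (orange) and the control (grey) and an axis from 0 in each panel. In ZNF146, ZNF480, ZNF845 and ZNF420 the control is the lowest bar, in ZNF264, ZNF296, ZNF836, ZNF865 and ZNF793 the highest, and in ZNF100 and ZNF91 si1 lies near the control.

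Members known for silencing retroelements differed from the control in either direction. ZNF93, which represses LINE-1 elements, stood at 2.12 FPKM in si4, 2.07 in si5, 2.12 in si1 and 1.90 in the control. ZNF611 stood at 1.40, 1.51, 1.52 and 1.71 FPKM, and ZNF649 at 7.66, 7.59, 6.55 and 6.47 FPKM. ZNF808 was under 1 FPKM, at 0.587, 0.615, 0.540 and 0.767, and ZNF534 was listed at 0 with si5 and si1. With ZNF91, the control was lowest in 3 of the 5 genes above 0 throughout and highest in the other two. None was past 1.5-fold at 1 FPKM.

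Other members with a known role were also close to the control. ZNF331, an imprinted gene, stood at 11.8 FPKM in si4, 11.9 in si5, 14.5 in si1 and 13.5 in the control. The ZSCAN5A libraries were below the control and si1 above it, and si1 stood 0.29 above their mean on the log2 scale. ZNF536, a neuronal gene, stood at 1.79, 2.18, 2.25 and 2.12 FPKM. ZNF382 and ZNF471, known as growth suppressors that are silenced in tumours, stood at 5.77, 6.17, 6.27 and 5.88 FPKM and at 1.74, 1.48, 1.45 and 1.75 FPKM.

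The members nearest to the targeted genes were on one side ZNF581 and ZNF787 and on the other ZNF542 and ZNF582. ZNF787 stood at 23.5 FPKM in si4, 20.6 in si5, 19.2 in si1 and 17.9 in the control, so the control was lowest. ZNF581 stood at 21.5, 22.5, 20.8 and 21.2 FPKM. ZNF542, for which no coding sequence was used, stood at 8.84, 9.90, 9.75 and 9.03 FPKM, and ZNF582 at 2.67, 2.40, 2.89 and 2.46 FPKM. None was past 1.5-fold in any siRNA library.

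Small differences were spread unevenly along the chromosome. In the tenth cluster 26 of 37 compared members were below the control for the mean of si4 and si5 and 29 of 37 for si1, with median log2 ratios of -0.076 and -0.12. In the second cluster, at chr19:8575462-9879410, 9 of 12 and 10 of 12 were below it, with medians of -0.18 and -0.11. In the eighth cluster 18 of 29 were above it in each comparison, with medians of 0.076 and 0.085. Among all entries in the members' range of control FPKM, 4059 of 6309 were below the control for the mean of si4 and si5. For si1 3837 of 6294 were below it, and the medians were -0.081 and -0.062. The tenth cluster was therefore near that background for the mean of si4 and si5. Both comparisons share the control, and no spread between replicates is known for these medians. GC content differed among these clusters, with medians of 45.1% in the tenth, 42.7% in the second and 40.7% in the eighth, and its part was not tested.

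**Figure D4:**
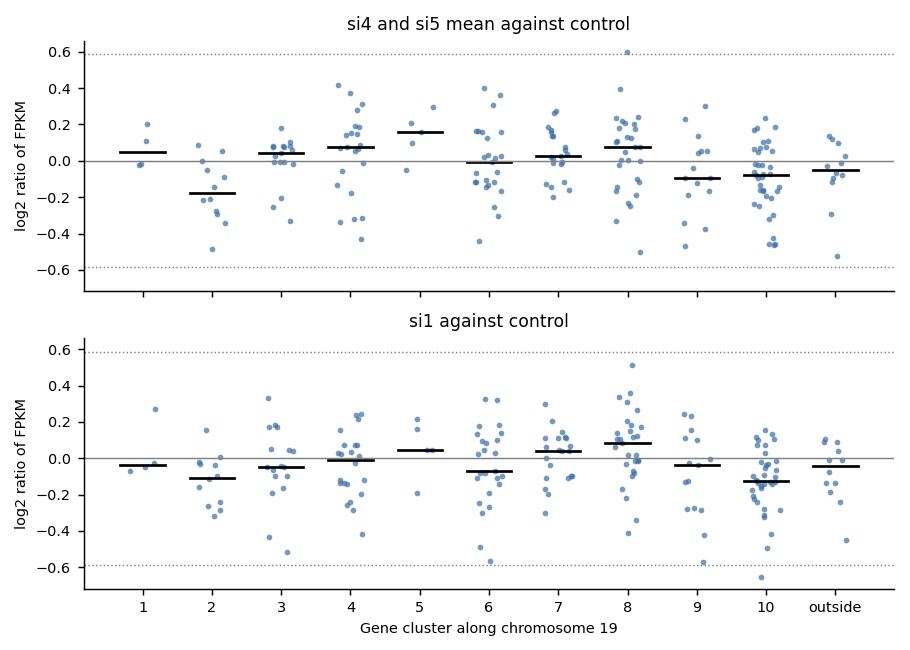
Log2 ratio of FPKM for each compared ZNF gene by gene cluster along chromosome 19, for the mean of si4 and si5 against the control (upper) and si1 against the control (lower), with a point per gene, a black line at each median, a grey line at 0 and dotted lines at 1.5-fold. The medians run from -0.18 in cluster 2 to 0.16 in cluster 5 in the upper panel and from -0.12 in cluster 10 to 0.085 in cluster 8 in the lower.

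By protein features, the 165 compared members with a KRAB A box match had a median log2 ratio of 0.010 for the mean of si4 and si5, with 85 higher and 80 lower. The 31 without it had a median of -0.068, with 10 higher and 21 lower, and they are the members richer in G and C. All entries in the members' range of control FPKM were close to these 31, with a median of -0.081, 2250 higher and 4059 lower. For si1 the medians of members with and without the match were -0.033 and -0.035. By number of fingers the medians for the mean of si4 and si5 were 0.011 for 9 or fewer, -0.020 for 10 to 14 and 0.012 for 15 or more.

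The corepressors that KRAB proteins work through were measured from a list of 32 genes, all found in the table. The list also held ZFP57, which is itself a KRAB zinc finger gene and not a corepressor. It was under 1 FPKM in every library and was not compared. Of 31 compared for the mean of si4 and si5, 10 were higher and 21 lower, with a median log2 ratio of -0.060, and for si1 14 were higher and 17 lower, with a median of -0.013. TRIM28 stood at 159.8 FPKM in si4, 148.5 in si5, 142.6 in si1 and 160.7 in the control. SETDB1 stood at 13.9, 14.9, 14.9 and 14.5 FPKM. For the mean of si4 and si5, 2 genes of the list were past 1.5-fold, both downward, beside the 3.79% of all entries given above. GATAD2B, a subunit of the NuRD deacetylase complex, stood at 4.35, 4.35, 4.68 and 7.41 FPKM. It was the one gene of the list past the limit for si1 as well, beside 4.01% of all entries in that comparison. PPHLN1, a subunit of the HUSH complex, stood at 40.7 FPKM with si4, was listed at 0 with si5, and stood at 42.9 with si1 and 36.5 in the control, so its low mean rests on the listed 0.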

How the data were processed

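Poly(A) RNA of 4 HEK-293 cultures was sequenced by the authors, who deposited 1 table of FPKM values with hg19 loci, used here as deposited. Per the labels, the processing used CASAVA 1.8.2, Trimmomatic 0.30, TopHat2 2.1.0 and Cufflinks 2.2.1. The annotation and the use of strand are not given in the sources used here, so overlapping genes may share reads. Labels and paper name different library kits.

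Ratios of FPKM were taken without a pseudocount, with limits of 1 FPKM and 1.5-fold after the methods of the paper. Its p-value step for ZSCAN5A was not repeated. The text names the 5 highest members, the 5 largest differences each way per comparison, members past the limit in all siRNA libraries, members of known role, those nearest to ZSCAN5A and ZSCAN5B, any at 0 in some library and at 1 FPKM or above in another and the 3 most unlike between si4 and si5. The members and lists were chosen with earlier results of these data known. The background in the members' FPKM range, the 1.2-fold counts, the GC and length classes and the finger classes were added after seeing the data. The 1.2-fold limit replaced a slightly higher one after the counts at that limit had been seen, with members below the background at either.

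Of the members, 244 were matched to GENCODE on GRCh37, 4 of them by an older symbol. Fingers were counted as C2H2 patterns. A KRAB match needed 9 of 15 consensus positions, and that pattern was revised after seeing which members it matched. Matches held at least 10 positions and the others at most 7. Fragments were estimated from FPKM, transcript length and depth, and the SE covers counting error only. Methods were tested on simulated data. Python 3.11.15, NumPy 2.4.6, pandas 2.3.3, SciPy 1.17.1, matplotlib 3.10.9 and limma 3.58.1 in R 4.3.3 were used. Alternatives covered limits, pseudocounts, scaling, repeated symbols, length and GC, each siRNA singly and limma. The table holds 0 other columns of per-sample values.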

Additional observations from a re-analysis of the deposited data

Results flagged for a closer look

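For 2 of the members chosen by the naming rule, si4 and si5 lay on one side of the control and si1 on the other. ZNF429 and ZNF681, named above outside that rule, had the same pattern. The pattern was not counted over all members or all entries, and the difference was not tested. For ZNF331 the log2 ratios to the control were -0.19 with si4, -0.19 with si5 and 0.10 with si1, and si1 stood 0.29 above the mean of si4 and si5 on the log2 scale. For ZNF581 they were 0.019, 0.084 and -0.027, with a log2 ratio of -0.079 for si1 over the mean of si4 and si5. The si1 value of ZNF581 is smaller than the members' median approximate counting SE for si1, 0.069. Its side of the control therefore carries no direction.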

How the results depend on the processing

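With 1 library per treatment no replicate can be left out, and no paired analysis was possible because each group has a single sample. For the mean of si4 and si5, the count of 1 member past 1.5-fold became 11 without the expression limit, where 13.7% of all entries were past it. It became 0 with a pseudocount of 1 FPKM, beside 1.92% of all entries, and 0 at 2-fold, beside 0.562%. At 2-fold so few entries were past the limit that the 0 says little about the members. With the length and GC correction it was 0, beside 2.49%. The count was 3 with si4 alone, beside 6.36%, and 2 with si5 alone, beside 3.54%. When both siRNAs had to pass it was 0, beside 1.87%. limma on log2(FPKM + 1), with si4 and si5 against 1 control, which is assumed to vary like them, called 0 of 199 members at an adjusted p of 0.05, with 13 members, or 6.53%, at an unadjusted p under 0.05. Over all 13044 entries it called 10, and 12.8% were at an unadjusted p under 0.05. For si1, the count of 1 became 10 without the expression limit, beside 13.2% of all entries, and 0 at 5 FPKM, beside 2.69%. It was 0 with a pseudocount of 1 FPKM, beside 2.02%, and 0 at 2-fold, beside 0.519%. With the length and GC correction it was 4, all downward, beside 2.86%. The median log2 ratio of the members moved by more than 0.024, the SD of the medians with si4 and si5, in 4 cases. For the mean of si4 and si5 it was 0.030 at a limit of 5 FPKM, 0.020 with upper-quartile scaling and -0.029 with si5 alone, and for si1 it was 0.018 at 5 FPKM. These medians lie so near 0 that their sign carries no direction. The SD was computed from the si4 and si5 medians themselves, so it is no separate measure for either siRNA alone. It measures no spread for si1. The remaining alternatives left each count within 1.5 times and each median within that SD. The number of members at 1 FPKM or above in the control was 208 at 0.5 FPKM and 165 at 2 FPKM. The 46 members under 1 FPKM in every library were outside the main comparisons.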
